A study of Mus musculus with 24 samples.

Results

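The genes described here encode the subunits of the constitutive proteasome in 4 mouse tumour cell lines, compared between cells carrying a guide RNA against B2m and cells carrying a non-targeting guide. Members were all genes named Psma1 to Psma8, Psmb1 to Psmb7, Psmc1 to Psmc6, or Psmd followed by a number. The inducible subunits Psmb8, Psmb9 and Psmb10 were left out. The rule goes by gene name alone, but it was set with earlier results of these data known. The rule gave 34 of the 34866 genes listed, of which 14 belong to the core particle and 20 to the regulatory particle. All 34 had a row and passed the filter on low values in all 4 lines. Psma8 was not analysed here. The labels give Hepa1-6 as hepatocellular carcinoma, AKR as esophageal carcinoma, LLC1 as Lewis lung carcinoma and MC38 as colon adenocarcinoma. Cells of a line carried either sgNT, a non-targeting guide, or sgB2m, which targets the gene of the MHC class I light chain, with 3 RNA-seq libraries per line and guide, or 24 libraries in 8 groups. All groups grew, per the labels' protocols, in the same serum-containing medium, and the form in which the guide and the nuclease were delivered is not given in the sources used here. The labels do not say whether the edited cells were 1 clone or a pool, or whether the 3 libraries of a group came from separate cultures, so the p-values measure the spread between these libraries.

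The proteasome degrades proteins tagged with ubiquitin and supplies peptides for loading on MHC class I. Its core particle is a barrel of stacked rings: outer rings of Psma (alpha) subunits gate the entrance, and inner rings of Psmb (beta) subunits hold the proteolytic sites. The regulatory particle caps the barrel. Its base contains the Psmc ATPases that unfold substrates and feed them in, and its lid contains the deubiquitinase Psmd14, which removes the ubiquitin chain. Psmd5, Psmd9 and Psmd10 carry Psmd names but are chaperones that help to build the base and leave the finished particle. The transcription factor Nfe2l1 raises many proteasome genes together when proteasome activity is short.

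Reads counted per gene ranged from 25 to 49.7 M per library, and member genes took between 0.367% and 0.659% of them. The B2m transcript itself was lower in every sgB2m group, from 2.56-fold in Hepa1-6 and 2.98-fold in AKR to 3.28-fold in LLC1 and 3.43-fold in MC38. The largest limma adjusted p of these 4 comparisons was 2.25e-08. The share of reads on mitochondrial genes was 4.03% ± 0.012 in sgB2m and 3.52% ± 0.026 in sgNT of AKR, and 4.19% ± 0.11 against 5.09% ± 0.11 in Hepa1-6 (SD, n = 3). In MC38 these shares were 3.34% ± 0.04 and 3.16% ± 0.078, and in LLC1 4.52% ± 0.083 and 4.43% ± 0.056. The markers of each line's tissue of origin were present in part (mean log2 value of at least 6). All 5 hepatocyte markers had a row in Hepa1-6, and 4 reached that level, led by Afp and Alb. In MC38, 1 of 5 colon markers did (Lgals4, at 6.67 in sgB2m and 6.78 in sgNT), while Cdx2, Cdh17 and Krt20 had no row. In LLC1, 2 of 5 lung markers did, Abca3 (10.31 and 10.39) and Napsa (7.29 and 8.11), and Nkx2-1 had no row. In AKR, 2 of 5 squamous markers did, Krt13 (8.87 and 7.67) and Sox2 (7.70 and 8.67), and Krt5 had no row. These markers also appeared in other lines: Abca3 reached that level in all 4, colon markers in LLC1 (1 of 5), AKR (3) and Hepa1-6 (4), squamous markers in MC38 (2) and Hepa1-6 (1), and the hepatocyte marker Afp in AKR. The T-cell markers Cd3e and Cd8a had no row in any line, and the summed normalised counts of the 4 T-cell and leukocyte markers were at most 7.59 in a library. Of the 4 myeloid markers, Adgre1 had no row outside MC38, where it averaged at most 0.51 in a group, and Cd68 reached 6 in all 4 lines, Lyz2 in LLC1 and Csf1r in Hepa1-6. A difference in a bulk sample cannot tell fewer cells of a type apart from less RNA per cell.

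Promoter sequence was examined because many members moved together within a line. RefSeq windows of 250 bases before to 50 after the start (build GRCm38.p6) were matched for 28 of the 34 members. Psmb1, Psmb2, Psmb7, Psmc3, Psmd3 and Psmd7 were not among them. The core of the antioxidant response element, TGACNNNGC, which Nfe2l1 and Nfe2l2 bind with small Maf partners, was searched on both strands. It was present in 5 of the 28 members, or 17.9%, and in 14.0% of the 27025 genes of the table. The CCAAT box, bound by the NF-Y trimer of Nfya, Nfyb and Nfyc, was present in 11 of the 28, or 39.3%, and in 41.1% of all genes. By particle, CCAAT was found in 6 of 11 core genes and 5 of 17 regulatory genes. The members with the response element core are given here 5′ to 3′ on the strand of the gene, with the match in capitals. In Psmc6 and Psmd12 the capitals hold the reverse complement of the motif.
Psmb5, chr14:54618024-54618067, minus strand, match starting 47 bases before the start: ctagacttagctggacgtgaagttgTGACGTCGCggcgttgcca
Psmb6, chr11:70525323-70525356, plus strand, match starting 9 bases before the start: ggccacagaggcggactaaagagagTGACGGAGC
Psmc6, chr14:45329574-45329615, plus strand, match starting 227 bases before the start: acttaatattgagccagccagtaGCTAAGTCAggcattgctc
Psmd9, chr5:123228134-123228177, plus strand, match starting 31 bases before the start: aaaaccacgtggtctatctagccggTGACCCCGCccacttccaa
Psmd12, chr11:107479278-107479299, plus strand, match starting 247 bases before the start: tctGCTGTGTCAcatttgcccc
Of these 5 genes, Psmb5 was called lower in MC38, LLC1 and Hepa1-6 and higher in AKR. Psmb6, Psmc6 and Psmd12 were called lower in MC38 and Hepa1-6 alone, and Psmd9 was called in no line. A call of lower in both MC38 and Hepa1-6 was seen for 20 of the 34 members and 4.65% of all genes. A match describes letters in the window and is not a measured binding site.

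Whether the strand of the reads was used in counting is not given in the sources used here. The annotation (GENCODE vM21) has exons of another gene on the opposite strand over exons of Psma4, Psma5, Psmb7, Psmc3, Psmd1, Psmd3, Psmd9 and Psmd13, and on the same strand over Psmb5 and Psmd1, so that reads could be shared there.

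In MC38, most proteasome genes were lower in sgB2m than in sgNT cells. Of the 34 members, 24 fell, 1 rose and 9 were not called at an adjusted p under 0.05 (limma, over 16532 genes tested in the line). Over all genes tested, 31.8% were called, 15.8% lower and 15.9% higher. The median log2 fold change was -0.27 over the core genes and -0.23 over the regulatory genes, against 0 over all genes. The strongest decrease was that of the alpha subunit Psma7, and the single gene that rose was Psmd1, a scaffold of the base. The 2 groups did not overlap for 27 of 34 members, where 45% of all genes were so separated. The myeloid marker Cd68 rose in sgB2m (0.36 ± 0.075), and the epithelial markers Cdh1 and Krt8 fell (-0.65 ± 0.11 and -3.33 ± 0.95). Krt8 was at a low level, with mean log2 values of 2.59 in sgB2m and 5.91 in sgNT and a lowest library at 0. Trp63 (4.08 ± 0.75) and Afp (1.22 ± 0.35) were called higher and Krt13 (-1.5 ± 0.43) lower, each with group means under 6. The part of these marker changes in the member change was not tested. Member genes together held 0.486% ± 0.0072 of reads with sgB2m and 0.585% ± 0.025 with sgNT (SD, n = 3).

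Hepa1-6 showed the same predominance of decreases. Here 26 members fell, 2 rose and the rest were not called, while 37.8% of all 14910 genes were called, 19.2% lower and 18.6% higher. Core and regulatory medians were -0.24 and -0.23, and the all-gene median stood at -0.01 in log2. The lid subunit Psmd8 and the chaperone Psmd10 were the 2 genes that rose. Psmd6, also of the lid, and the ATPase Psmc5 had the lowest fold changes. The groups were apart for 30 members, against 47.6% of all genes. Markers of the hepatocyte changed in the same comparison: Apoa1 (-2.52 ± 0.45), Ttr (-1.63 ± 0.084) and Alb (-0.39 ± 0.015) fell, and Hnf4a (0.26 ± 0.036) and Afp (0.03 ± 0.012) rose. The 5 markers summed to 317000 to 320000 normalised counts in sgB2m libraries and 344000 to 350000 in sgNT. Of the myeloid markers, Cd68 rose (1.24 ± 0.16) and Csf1r fell (-0.83 ± 0.16). Among the other marker lists, Krt5 (-0.52 ± 0.12), Krt8 (-0.28 ± 0.022), Vil1, Krt20 and Abca3 fell, and Krt18 (0.21 ± 0.018) and Cdh17 rose. The part of these marker changes in the member decrease was not tested. The member share of reads was 0.455% ± 0.0067 in sgB2m and 0.514% ± 0.0038 in sgNT (SD, n = 3).

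AKR cells went the other way. In this line 22 members rose and 1 fell, with 42.9% of all 15882 genes called, 21% higher and 21.9% lower. The core median was 0.20 and the regulatory median 0.22, against 0.01 over all genes. Psmd8, Psmd5 and Psma5 rose most, and Psmd14 was the single gene called lower. The 2 groups did not overlap for 26 members, and 52.5% of all genes were so separated. The myeloid marker Cd68 rose (1.46 ± 0.044), with mean log2 values of 12.77 in sgB2m and 11.3 in sgNT. Csf1r was not called (1.03 ± 0.52), and Adgre1 had no row. Lyz2 was not tested, at mean log2 values of 0 and 1.09. The myeloid markers with a row summed to 6840 to 7220 normalised counts in sgB2m libraries and 2460 to 2580 in sgNT, nearly all from Cd68. Of the squamous markers Krt13 rose (1.2 ± 0.095) and Sox2 fell (-0.97 ± 0.1), and the epithelial Krt8, Krt18 and Epcam rose. The colon markers Krt20 (1.59 ± 0.13) and Cdx2 (0.57 ± 0.12) and the hepatocyte marker Afp (1.2 ± 0.19) rose too. The part of these marker changes in the member increase was not tested. The member share of reads was 0.633% ± 0.023 with sgB2m and 0.539% ± 0.0091 with sgNT (SD, n = 3). Without the intensity trend in limma, which models how the spread depends on the level, 14 members were called higher and 0 lower.

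LLC1 was divided, with 10 members higher, 11 lower and 13 not called, where 42.4% of all 15323 genes were called, 20.7% higher and 21.8% lower. Medians were 0.04 for the core and -0.02 for the regulatory particle, and 0.01 over all genes. Psma2 had the highest fold change and Psmd14 the lowest. Groups did not overlap for 21 members (51.8% of all genes). Cd68 fell (-1.27 ± 0.15), as did the lung marker Napsa (-0.82 ± 0.12) and the epithelial Krt8 (-0.23 ± 0.072) and Krt18 (-0.37 ± 0.068). The other expressed myeloid marker, Lyz2, did not fall and was not called (0.24 ± 0.17). Csf1r was not tested, at mean log2 values of 2.17 in sgB2m and 1 in sgNT, and Adgre1 had no row. The myeloid markers with a row summed to 218 to 303 normalised counts in sgB2m libraries and 380 to 467 in sgNT. The part of these marker changes in the member changes was not tested. The share of reads was 0.371% ± 0.0032 in sgB2m and 0.37% ± 0.00058 in sgNT (SD, n = 3). With each library centred on the median of its genes, 7 were higher and 12 lower, so that 36.8% of the called members were higher in place of 47.6%. The number called higher also fell to 4 without sgB2m replicate 2, to 4 without sgNT replicate 2, to 6 without sgNT replicate 3 and to 4 with no intensity trend.

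**Figure D1:**
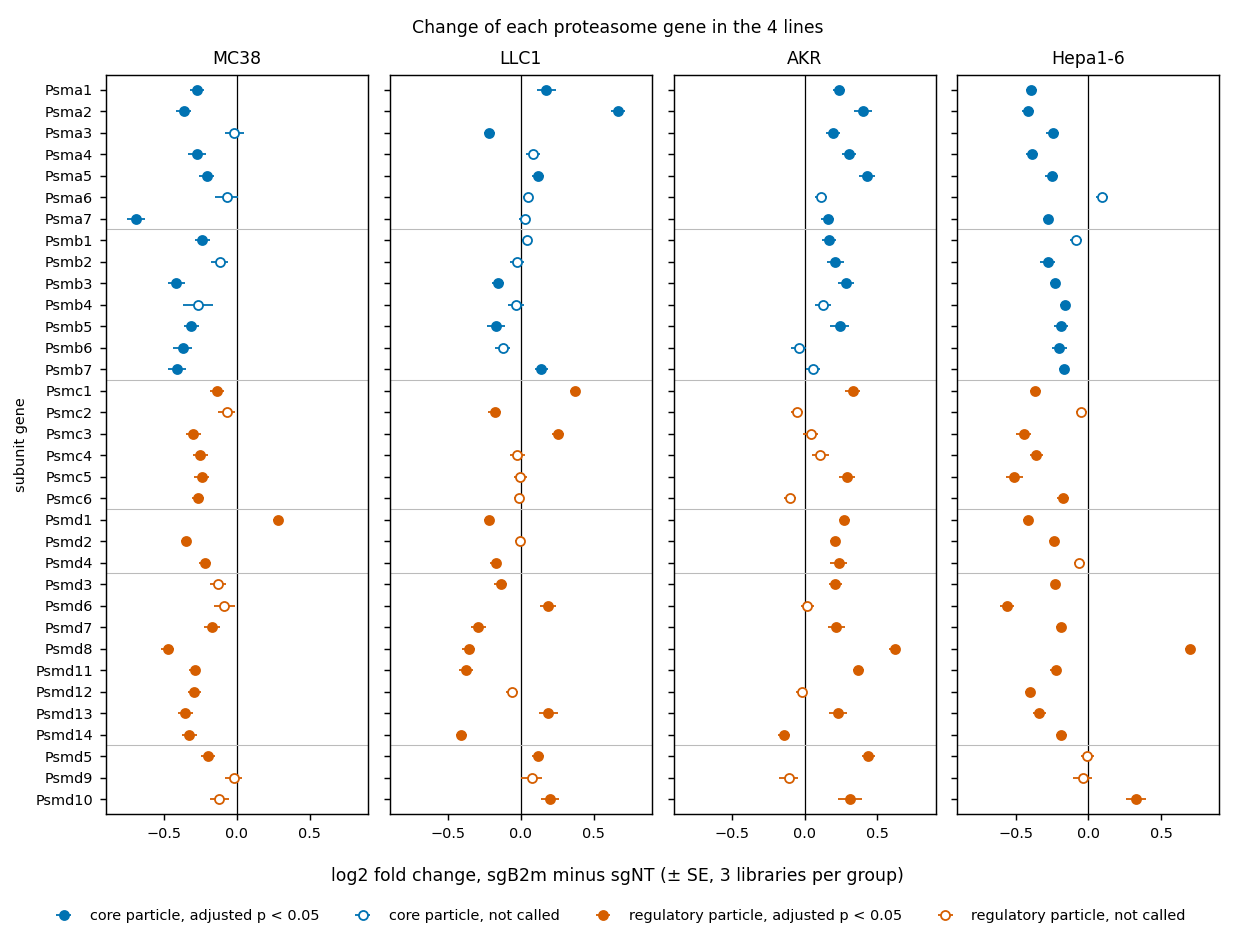
Log2 fold change (sgB2m minus sgNT, ± SE, 3 libraries per group) of each of the 34 genes in the 4 lines, ordered by role from the alpha ring at the top to the chaperones at the bottom; filled symbols were called at an adjusted p under 0.05. Most symbols lie left of 0 in MC38 (24 lower) and Hepa1-6 (26 lower) and right of 0 in AKR (22 higher), with Psmd8 at 0.70 in Hepa1-6 standing apart.

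Genes of similar exon length and level were set beside these medians. Over the other genes within the exon-length and level range of the core subunits, the median log2 fold change was -0.07 in MC38, -0.06 in Hepa1-6, 0.01 in AKR and -0.03 in LLC1. Of those genes, 33.8% were called lower in MC38 and 40% in Hepa1-6, and 30.8% were called higher in AKR. The core medians of -0.27, -0.24 and 0.20 lay further from 0 in each of these 3 lines.

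The alpha ring, which forms the gated ends of the core, had 5 of 7 genes lower in MC38, 6 lower in Hepa1-6 and 6 higher in AKR; in LLC1, 3 were higher and 1 lower. Psma7 (ENSMUSG00000027566, chr2:180036374-180042433 in mm10) had normalised counts of 4795, 5089 and 4775 in the sgB2m libraries of MC38, and 7225, 8089 and 8465 in sgNT. All 3 sgB2m libraries lay below all 3 controls, a log2 fold change of -0.70 ± 0.061 (SE), or 1.62-fold lower (adjusted p = 2.74e-05). The 20 nearest tested genes on chromosome 2 had a median of -0.22, and 8 of them were called lower. In Hepa1-6 the same gene stood at 4858, 4831 and 4782 in sgB2m against 5850, 5843 and 5888 in sgNT, again without overlap (-0.28 ± 0.032). In AKR its groups were separated upward (0.16 ± 0.045, adjusted p = 0.016), a call lost without sgNT replicate 3 (adjusted p = 0.0644), and in LLC1 it was at 0.03.

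Psma2 (ENSMUSG00000015671, chr13:14613240-14674236) moved in opposite directions between lines. LLC1 libraries held 2613, 2674 and 2688 normalised counts in sgB2m and 1661, 1763 and 1605 in sgNT, with no overlap and a 1.59-fold rise (0.67 ± 0.048, adjusted p = 6.92e-08). In AKR the values were 4576, 4075 and 4409 in sgB2m and 3028, 3484 and 3399 in sgNT, also higher in all 3 sgB2m libraries (0.40 ± 0.062). In Hepa1-6 they were 3167, 3120 and 3053 against 4077, 4326 and 4067, now lower in all 3 (-0.42 ± 0.04). MC38 gave 4090, 4376 and 3889 against 5184, 5361 and 5360 (-0.37 ± 0.053). The 20 nearest tested genes had medians of 0.15, -0.19, -0.04 and 0 in LLC1, AKR, Hepa1-6 and MC38.

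Psma1 and Psma5 had the same signs as Psma2 in all 4 lines. Psma5 rose 1.35-fold in AKR, from 4854, 5015 and 4891 in sgNT to 7265, 6238 and 6398 in sgB2m. It fell 1.19-fold in Hepa1-6 and 1.16-fold in MC38. Psma1 fell 1.31-fold in Hepa1-6, from 4267, 4252 and 4186 to 3299, 3217 and 3157, and rose 1.18-fold in AKR. The LLC1 increases of both were small: Psma1 at 0.18 ± 0.063 had overlapping groups, with 2094, 2069 and 1780 in sgB2m and 1795, 1793 and 1659 in sgNT. The Psma1 call had an adjusted p from 0.051 to 0.135 without sgB2m replicate 1 or 2 or sgNT replicate 2 or 3. The Psma5 value in LLC1 (0.12 ± 0.04) had one from 0.0546 to 0.134 without sgB2m replicate 1 or 3 or sgNT replicate 2. In MC38 the adjusted p of Psma5 was 0.0517 without sgB2m replicate 2 and 0.064 without replicate 3. Psma3 differed in LLC1, where it fell (-0.22 ± 0.037), and in MC38 it was not called (-0.02 ± 0.064). Psma6 was called in no line, with fold changes between -0.07 and 0.11.

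In the beta ring, 5 of 7 genes were lower in MC38 and 6 in Hepa1-6, 4 were higher in AKR, and 1 was higher and 2 lower in LLC1. The 3 catalytic subunits are Psmb5, which cuts after hydrophobic residues, Psmb6, which cuts after acidic ones, and Psmb7, which cuts after basic ones. Psmb5 (ENSMUSG00000022193, chr14:54614119-54618022), one of the promoters with the response element core, had 2459, 2508 and 2572 normalised counts in sgB2m of MC38 against 3058, 3083 and 3225 in sgNT. The groups did not overlap (-0.31 ± 0.051, adjusted p = 0.00124). It was lower in Hepa1-6 too, at 2108, 2225 and 2039 against 2360, 2464 and 2445 (-0.19 ± 0.048), and higher in AKR, at 3348, 2841 and 3130 against 2695, 2703 and 2478 (0.24 ± 0.064). The AKR call was lost without the intensity trend (adjusted p = 0.0677). In LLC1 the fold change was -0.17 ± 0.064 (adjusted p = 0.0457); the adjusted p was 0.206 without sgB2m replicate 1 and from 0.0609 to 0.137 without sgB2m replicate 2 or any 1 sgNT library.

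Psmb6 (ENSMUSG00000018286, chr11:70525367-70527858) fell in MC38, from 3630, 4084 and 4159 in sgNT to 3020, 3237 and 2904 in sgB2m (-0.37 ± 0.066). Its Hepa1-6 values were 2609, 2544 and 2402 in sgB2m and 2687, 3041 and 2962 in sgNT (-0.20 ± 0.053, adjusted p = 0.00681). The nearest libraries of those groups were 2609 and 2687, so that the gap was small, and without the intensity trend the adjusted p was 0.0799. Unlike most core genes, Psmb6 was not called in AKR, at -0.04 ± 0.051. Psmb7 (ENSMUSG00000026750, chr2:38588036-38644087) fell from 4230, 4658 and 4875 to 3249, 3500 and 3578 in MC38 (-0.41 ± 0.064) and 1.12-fold in Hepa1-6, and was not called in AKR (0.06 ± 0.048). In LLC1 it was higher by 0.14 ± 0.044 (adjusted p = 0.0164). The adjusted p was 0.055 without sgB2m replicate 2, 0.0529 without sgNT replicate 1, 0.0757 without sgNT replicate 2 and 0.0631 without the intensity trend.

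Among the structural beta subunits, Psmb3 was called in all 4 lines. It fell 1.33-fold in MC38, with 4357, 4326 and 4409 in sgB2m and 5336, 5932 and 6232 in sgNT, 1.12-fold in LLC1 and 1.17-fold in Hepa1-6. In AKR it rose 1.22-fold, to 5295, 4806 and 4687 from 3840, 4163 and 4154, with no overlap. Psmb4 was not called in MC38 (-0.27 ± 0.1, adjusted p = 0.0677), where its control libraries spread over 4049, 4464 and 5627.

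The ATPases of the base had 5 of 6 genes lower in both MC38 and Hepa1-6, 2 higher and none lower in AKR, and 2 higher and 1 lower in LLC1. Psmc5 (ENSMUSG00000020708, chr11:106256154-106263120) fell 1.42-fold in Hepa1-6, with 2665, 3271 and 2967 in sgB2m and 4115, 4197 and 4326 in sgNT (-0.51 ± 0.058, adjusted p = 4.59e-06). Its groups were also apart in AKR, upward, with 4825, 4314 and 4375 against 3536, 3780 and 3713 (0.29 ± 0.053). In LLC1 they overlapped, with a log2 fold change of 0 ± 0.045.

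Psmc1 (ENSMUSG00000021178, chr12:100110154-100123405) rose in LLC1, from 4008, 3890 and 3996 to 4998, 5201 and 5190 (0.37 ± 0.035), and in AKR, from 5832, 6283 and 6315 to 8206, 7483 and 7473 (0.33 ± 0.05). It fell in Hepa1-6 from 5368, 5768 and 5548 to 4339, 4172 and 4426 (-0.37 ± 0.038). The groups were separate in each of these lines. The MC38 value of -0.14 ± 0.048 was just past the threshold (adjusted p = 0.0493) and was not called (adjusted p from 0.0641 to 0.161) when any 1 library other than sgNT replicate 1 was left out. Psmc3 shared the pattern of a rise in LLC1 (0.26 ± 0.043) with decreases in MC38 (-0.30 ± 0.049) and Hepa1-6 (-0.45 ± 0.051), and stood at 0.04 ± 0.053 in AKR. Psmc2 was called in LLC1 alone, at -0.18 ± 0.042; its difference between lines did not pass the interaction test (adjusted p = 0.181).

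Psmd1, Psmd2 and Psmd4 are the non-ATPase subunits of the base: 2 large scaffolds and the ubiquitin receptor Psmd4. The scaffold Psmd1 (ENSMUSG00000026229, chr1:86064387-86139151) was the member that rose in MC38, at 13180, 13030 and 13120 in sgB2m against 10950, 10620 and 10750 in sgNT. All sgB2m libraries were above all controls (0.28 ± 0.036, adjusted p = 0.000288). The other tested genes of chromosome 1 had a median log2 fold change of 0.23 in MC38, with 39.2% called higher and 3.56% lower. The 20 nearest tested genes had a median of 0.25, and 9 were called higher and 0 lower. In the other lines Psmd1 went from 8852, 8591 and 9106 to 6426, 6958 and 6531 in Hepa1-6 (-0.42 ± 0.035), from 6803, 6890 and 6595 to 8000, 8331 and 8192 in AKR (0.27 ± 0.038), and from 6563, 6657 and 6749 to 5656, 5690 and 5797 in LLC1 (-0.22 ± 0.031). In none of the lines did the sgB2m and sgNT values overlap. Psmd2 fell 1.28-fold in MC38 and 1.18-fold in Hepa1-6 and rose 1.16-fold in AKR. Psmd4 fell in MC38 and LLC1 (-0.22 ± 0.044 and -0.17 ± 0.038), rose in AKR (0.23 ± 0.057) and was not called in Hepa1-6 (-0.06 ± 0.038).

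In the lid, 6 of 8 genes fell in MC38. In Hepa1-6, 7 fell and 1 rose, in AKR 5 rose and 1 fell, and in LLC1 2 rose and 5 fell. Psmd8 (ENSMUSG00000030591, chr7:29174188-29180701, minus strand) had the highest fold change of all members in 2 lines. In Hepa1-6 its normalised counts were 9051, 8776 and 9143 in sgB2m and 5415, 5509 and 5700 in sgNT (0.70 ± 0.032, 1.62-fold, adjusted p = 1.47e-10). AKR gave 9600, 9062 and 9165 against 6126, 6057 and 5925 (0.62 ± 0.039). It fell in MC38, with 8385, 8547 and 8599 against 11180, 11860 and 12520 (-0.48 ± 0.047), and in LLC1, with 2926, 3124 and 3168 against 4030, 4018 and 3771 (-0.36 ± 0.044). The groups were separate in each of the 4 lines. Its 20 nearest tested genes had medians of 0.14 in Hepa1-6, 0.15 in AKR, -0.19 in MC38 and 0.13 in LLC1.

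Psmd6 fell 1.47-fold in Hepa1-6, the lowest fold change of any member there, with 1870, 1814 and 1871 in sgB2m and 2653, 2838 and 2700 in sgNT (-0.56 ± 0.047). It was not called in MC38 (-0.09 ± 0.074) or AKR (0.02 ± 0.046). In LLC1 it was higher (0.18 ± 0.055), with an adjusted p of 0.0616 without sgB2m replicate 2, 0.0516 without sgNT replicate 1 and 0.0646 without sgNT replicate 3. Psmd11, which joins lid and base, had 1754, 1740 and 1620 in sgB2m of LLC1 against 2217, 2220 and 2211 in sgNT (-0.38 ± 0.048). The same gene rose in AKR from 5711, 5743 and 5865 to 7531, 7465 and 7355 (0.37 ± 0.037), and its groups did not overlap in any line. The 20 tested genes nearest to Psmd11 had a median of -0.22 in LLC1 (7 lower, 1 higher) and -0.09 in AKR (5 lower, 5 higher). Psmd13 fell in MC38 (-0.35 ± 0.049) and Hepa1-6 (-0.34 ± 0.047) and rose in AKR (0.23 ± 0.061). Its LLC1 value was 0.19 ± 0.063. The adjusted p of that value was 0.128 without sgB2m replicate 2, 0.0591 without sgNT replicate 2 and 0.0707 without sgNT replicate 3. The 20 tested genes nearest to Psmd13 had medians of 0.26 in AKR (9 higher, 3 lower) and 0.21 in LLC1 (10 higher, 1 lower). In MC38 and Hepa1-6 these medians were -0.05 and 0.03. Psmd7, the partner of Psmd14 in the lid, fell in MC38, LLC1 and Hepa1-6 (-0.17 ± 0.055, -0.29 ± 0.051 and -0.19 ± 0.033) and rose in AKR (0.22 ± 0.057). The adjusted p of Psmd7 in MC38 was from 0.0904 to 0.146 without sgB2m replicate 1 or 3 or sgNT replicate 2 or 3, and in AKR it was 0.0516 without sgNT replicate 1.

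Psmd14 (ENSMUSG00000026914, chr2:61711694-61800376), the deubiquitinase, was the member called lower in all 4 lines; 49 of the 12674 genes tested in every line had this pattern. In LLC1 the sgB2m libraries held 3418, 3460 and 3290 normalised counts and the sgNT libraries 4411, 4461 and 4635 (-0.41 ± 0.038, adjusted p = 9.27e-07). MC38 gave 4238, 4229 and 4368 against 5104, 5425 and 5582 (-0.33 ± 0.049), and Hepa1-6 gave 4147, 4222 and 4060 against 4606, 4832 and 4704 (-0.19 ± 0.036). All sgB2m libraries of these lines were below the controls. The AKR difference was the smallest, with 7274, 6714 and 7145 against 7592, 7995 and 7726 (-0.14 ± 0.043, adjusted p = 0.0211). It was not called after quantile normalisation (-0.03, adjusted p = 0.593) or without the intensity trend (0.0939), nor without sgB2m replicate 2 (0.0668), sgNT replicate 2 (0.094) or sgNT replicate 3 (0.0539). The 20 nearest tested genes in AKR had a median of -0.18, with 10 called lower and 0 higher. With the line as the replicate, the mean over the 4 lines was -0.27 ± 0.11 (SE), with an unadjusted limma p of 0.0457 and an adjusted p of 0.98. That test called no gene, B2m included, so its adjusted p does not decide whether the change was shared.

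**Figure D2:**
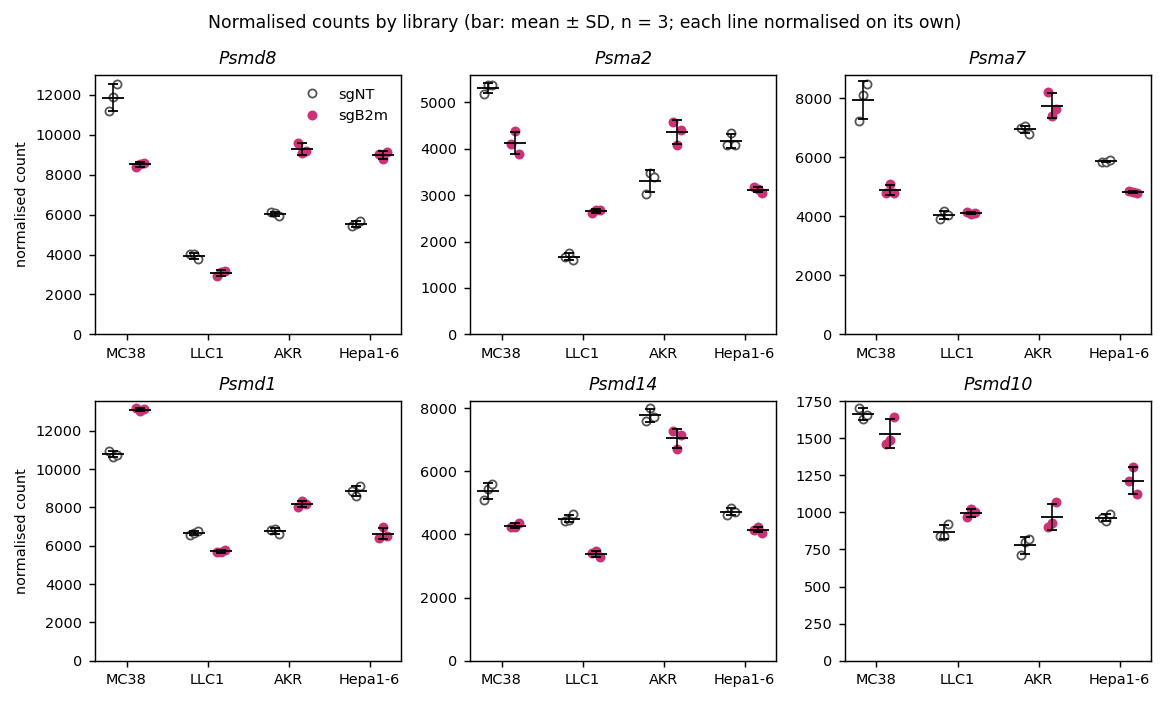
Normalised counts of Psmd8, Psma2, Psma7, Psmd1, Psmd14 and Psmd10 in every library (open circles sgNT, filled circles sgB2m; bars are the mean ± SD, n = 3). Psmd8 is lower in sgB2m of MC38 and LLC1 and higher in AKR and Hepa1-6, while Psmd14 is lower in sgB2m in all 4 lines; each line was normalised on its own, so heights are compared within a line.

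Of the 3 assembly chaperones of the base, 1 was lower in MC38 (Psmd5) and 0 in Hepa1-6, beside 5 of 6 ATPases in each of these lines. Psmd10 (ENSMUSG00000031429, chrX:140948429-140956728), also known as gankyrin, was the single member called higher in 3 lines. In Hepa1-6 it had 1211, 1304 and 1127 normalised counts in sgB2m and 963.1, 940.9 and 990.9 in sgNT (0.33 ± 0.068, adjusted p = 0.00131). AKR had 904.5, 928.4 and 1071 against 712.9, 801.7 and 820.5 (0.31 ± 0.084), and LLC1 966.5, 1021 and 1001 against 841.2, 838.8 and 920.6 (0.20 ± 0.064). Each of these 3 lines had separate groups, and in MC38 they overlapped (-0.12 ± 0.066). The LLC1 call was lost without sgB2m replicate 2, sgNT replicate 1 or sgNT replicate 2 (adjusted p of 0.0686, 0.0694 and 0.0746). The AKR call was lost without sgB2m replicate 3 or sgNT replicate 1 (0.0548 and 0.0529) and with no intensity trend (0.0515).

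Psmd5 rose 1.36-fold in AKR, from 2042, 2131 and 2109 to 2896, 2870 and 2751 (0.44 ± 0.047, adjusted p = 3.26e-05). It fell in MC38, from 3960, 3955 and 4147 to 3519, 3539 and 3452 (-0.20 ± 0.046), and was not called in Hepa1-6, where the groups overlapped (-0.01 ± 0.045). In LLC1 it was at 0.12 ± 0.041 (adjusted p = 0.0297), and from 0.0611 to 0.0933 in adjusted p without sgB2m replicate 2 or 3 or sgNT replicate 2 or 3. Psmd9, whose promoter also held that motif, was called in no line. Its fold changes were -0.02, 0.08, -0.11 and -0.04 in MC38, LLC1, AKR and Hepa1-6, with standard errors between 0.058 and 0.073.

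The core and the regulatory particle were then compared within each library, as the mean log2 value of the 14 core genes minus that of the 20 regulatory genes. In MC38 this difference was -0.36 ± 0.023 in sgB2m and -0.27 ± 0.053 in sgNT (SD, n = 3), a shift of -0.09. The nearest libraries were sgB2m replicate 2 and sgNT replicate 1, both at -0.33 when rounded. In Hepa1-6 the difference was -0.04 ± 0.012 against 0 ± 0.0095, a shift of -0.04. It went the other way in LLC1, from -0.12 ± 0.009 to -0.04 ± 0.0097, a shift of 0.08. In AKR it went from 0.08 ± 0.013 to 0.11 ± 0.024. The 20 regulatory genes included the chaperones Psmd5, Psmd9 and Psmd10, which leave the finished particle. Their median log2 fold change was -0.12 in MC38, -0.01 in Hepa1-6, 0.31 in AKR and 0.12 in LLC1. The shift without them was not computed. The core mean itself moved by -0.29 in MC38, -0.23 in Hepa1-6, 0.21 in AKR and 0.04 in LLC1, and the regulatory mean by -0.20, -0.19, 0.17 and -0.04. No p-value was computed for these means, because the genes were chosen with earlier results known.

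**Figure D3:**
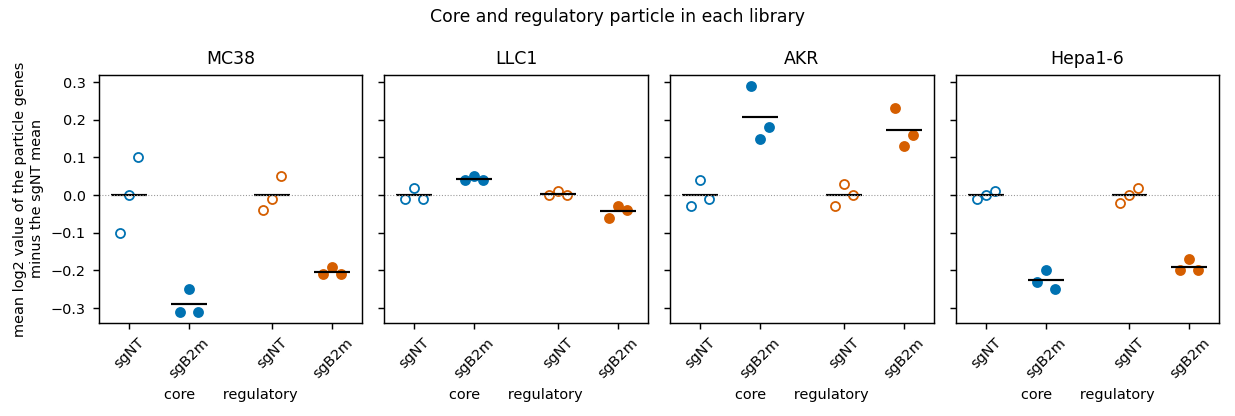
Mean log2 value of the core genes (blue) and of the regulatory genes (orange) in each library, relative to the mean of the 3 sgNT libraries of the line; bars mark group means of 3 libraries. Both particles are lower in sgB2m of MC38 (-0.29 and -0.20) and Hepa1-6 (-0.23 and -0.19), both are higher in AKR (0.21 and 0.17), and LLC1 has the core slightly up (0.04) and the regulatory particle slightly down (-0.04).

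The size and direction of the change differed between lines for most members. The interaction of line and guide, a limma F test over the 12674 genes tested in all lines, was called for 31 of the 34, where the background was 69.8% of genes. Psma6, Psmc2 and Psmd9 were the 3 not called. Psmd8, Psmd1, Psmd11 and Psma2 had the lowest interaction p-values, with adjusted p of 4.8e-15, 1.64e-12, 5.76e-12 and 7.72e-12. In both MC38 and Hepa1-6, 20 members were called lower (background 4.65%), and 13 of these were also called higher in AKR (background 1.55%). Of the 13, 7 were core genes and 6 regulatory. Calls in both directions, in different lines, were seen for 24 members (background 33.4%). Psmb3, Psmb5, Psmd7, Psmd11 and Psmd14 were called lower in at least 3 lines (5 of 34; background 4.37%), and Psmd10 was called higher in at least 3 (background 3.53%). With the line as the replicate, 0 members and 0 of all genes were called by limma. At an unadjusted p under 0.05, 1 member and 560 of the 12674 genes were. The genes not called after adjustment included B2m, whose log2 fold change ranged from -1.78 in MC38 to -1.35 in Hepa1-6. A test that missed the edited gene cannot tell whether a member changed alike in all lines.

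Expression per length showed how the subunits stood to each other. In sgNT cells the normalised count per kb of exon spread 3.1-fold from the lowest to the highest core gene in MC38, 3.52-fold in Hepa1-6, 5.41-fold in AKR and 8.36-fold in LLC1. Psma6 was the highest core gene in MC38 and LLC1 (3600 and 3810 per kb), and Psmb4 in AKR and Hepa1-6 (4860 and 3250 per kb). The chaperones Psmd9 and Psmd5 were the 2 lowest members in every line, with Psmd9 at 223, 112, 128 and 148 per kb in MC38, LLC1, AKR and Hepa1-6. The catalytic Psmb5 stood at 3470, 1570, 2920 and 2700 per kb, above Psmb7 at 1340, 701, 2040 and 1400. This order rests on the exon lengths used, 0.899 kb for Psmb5 and 3.421 kb for Psmb7. Before division by length Psmb7 was the higher, at mean normalised counts of 4587, 2398, 6964 and 4788 against 3122, 1415, 2625 and 2423. The length is the union of all annotated exons, 7.25 kb for Psmd9, so a gene with long exons that these cells do not use is placed too low.

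**Figure D4:**
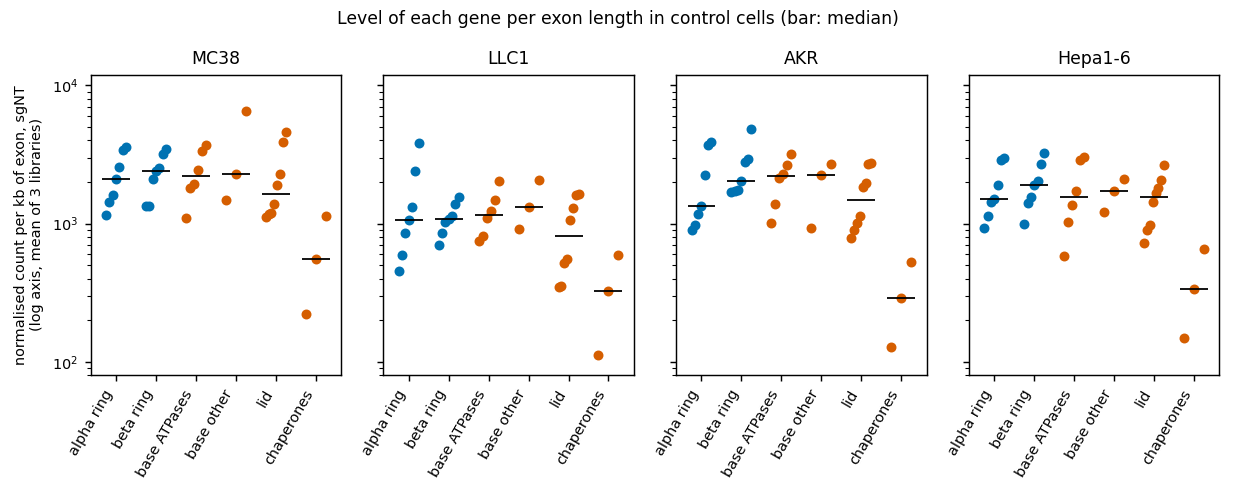
Mean normalised count per kb of exon in the 3 sgNT libraries of each line (log axis), 1 point per gene, grouped by role (blue core, orange regulatory; bar is the median of the role). The rings, base and lid overlap, and the 3 chaperones reach down to Psmd9 at 112 per kb in LLC1.

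Other genes of the pathway were taken from 6 lists with 48 genes listed, each described by its own counts. Over all genes tested, the shares called higher and lower were 15.9% and 15.8% in MC38, 20.7% and 21.8% in LLC1, 21% and 21.9% in AKR, and 18.6% and 19.2% in Hepa1-6, and 1 gene of a list of 5 or 6 is near these shares. The inducible subunits Psmb8, Psmb9 and Psmb10 replace Psmb5, Psmb6 and Psmb7 in the immunoproteasome. Of the 3 tested, 2 were higher in AKR and in Hepa1-6, and none was called in MC38. The 1 called in LLC1 was Psmb8, lower and near the floor. Psmb11, the thymus-specific subunit, was not tested. Psmb9 rose in AKR, from 108, 63.24 and 70.3 normalised counts in sgNT to 162.2, 144.9 and 140.2 in sgB2m (0.92 ± 0.2, adjusted p = 0.00408). Psmb9 also rose in Hepa1-6, from 152.8, 151.9 and 146.5 to 248.3, 171.2 and 254.1 (0.55 ± 0.17). That call was lost without sgB2m replicate 1 (adjusted p = 0.0768) or replicate 3 (0.0772). Psmb9 was positive but not called in MC38 (0.27 ± 0.16) and in LLC1 (0.61 ± 0.32, 130 reads in sgB2m and 83 in sgNT). Its difference between lines did not pass the limma interaction test (adjusted p = 0.323). Psmb8 rose in Hepa1-6, from 321, 337.7 and 267.2 to 440.6, 519.8 and 472 (0.63 ± 0.12), where Psmb5, the subunit it replaces, fell. In AKR Psmb8 was at 0.22 ± 0.078 (adjusted p = 0.0439), a call lost (adjusted p from 0.0699 to 0.172) when any 1 library other than sgNT replicate 3 was left out. In LLC1 Psmb8 was barely expressed, at 8.921, 0 and 0 in sgB2m against 22.35, 20.75 and 21.02 in sgNT. These are 9 and 63 reads per group. It passed the filter there through its sgNT libraries alone, so the call of lower is not read as a result. Psmb10 was called in no line, with fold changes from -0.41 to 0.18.

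Of the 5 activators and inhibitors, which open the core without the regulatory particle or block it, 1 was higher in MC38, 2 were higher and 1 lower in LLC1, 1 was lower in AKR and 3 in Hepa1-6. Psme3, the nuclear activator, fell in LLC1 from 4610, 4784 and 4682 to 2859, 3212 and 2778 (-0.67 ± 0.05), in AKR (-0.31 ± 0.039) and in Hepa1-6 (-0.28 ± 0.032). It was not called in MC38 (-0.11 ± 0.043). The interferon-inducible pair differed: Psme1 was called in no line, and Psme2 was higher in LLC1 (0.25 ± 0.065) and in MC38 (0.24 ± 0.078, adjusted p = 0.0369). The MC38 value had an adjusted p from 0.0531 to 0.135 without any 1 sgB2m library or sgNT replicate 2.

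Assembly and import factors had 2 of 6 lower in MC38, 1 higher and 1 lower in LLC1 and in AKR, and 1 higher and 2 lower in Hepa1-6. Pomp, which matures the core particle, rose in AKR from 1777, 2004 and 1778 to 2874, 2746 and 2808 (0.60 ± 0.058), rose in LLC1 (0.35 ± 0.048) and fell in Hepa1-6 from 4392, 4151 and 4371 to 3128, 3032 and 3120 (-0.48 ± 0.039). Its groups overlapped in MC38 (0.04 ± 0.073). Psmg2, a chaperone of the alpha ring, fell in MC38 from 1375, 1564 and 1556 to 980.2, 945.2 and 1028 (-0.60 ± 0.075).

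The list of 14 further subunits, ubiquitin receptors, deubiquitinases and bound factors had 1 higher and 6 lower in MC38, 3 higher and 10 lower in LLC1, 3 higher and 2 lower in AKR, and 2 higher and 4 lower in Hepa1-6. Ubiquitin genes, activating enzymes and the unfoldase Vcp with its cofactors made 10 genes, with 3 higher and 2 lower in MC38, 3 and 5 in Hepa1-6, 3 and 1 in AKR and 3 and 3 in LLC1. The list of 9 transcriptional regulators had 3 higher and 1 lower in MC38, 0 higher and 7 lower in LLC1, 0 higher and 5 lower in AKR, and 4 higher and 1 lower in Hepa1-6.

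Nfe2l1 was called in all 4 lines, with a sign opposite to that of the member medians in 3 of them. In Hepa1-6 it had 12450, 12380 and 13020 normalised counts in sgB2m and 9021, 9118 and 9224 in sgNT (0.47 ± 0.028, adjusted p = 2.83e-09), where the member median was negative. In MC38 it was higher at 15210, 14700 and 14840 against 12460, 12180 and 11980 (0.29 ± 0.037). In AKR it was lower at 13140, 13580 and 13820 against 15860, 15500 and 15650 (-0.21 ± 0.036), where the member median was positive. In LLC1 it was lower by 1.13-fold (-0.17 ± 0.027), with no overlap in any line. These are transcript levels: Nfe2l1 is controlled largely after translation, by the glycosidase Ngly1 and the protease Ddi2. Ngly1 rose 1.54-fold in MC38, from 531.8, 585 and 487.7 to 862, 825.9 and 785.8 (0.63 ± 0.093). In AKR it was at -0.16 ± 0.059 (adjusted p = 0.045), a call lost (adjusted p from 0.0603 to 0.153) when any 1 library other than sgB2m replicate 1 was left out.

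Among the small Maf partners, Mafk and Maff had the largest changes. Mafk rose 1.75-fold in Hepa1-6, from 2494, 2369 and 2657 to 4326, 4334 and 4522 (0.81 ± 0.046), and fell 1.29-fold in LLC1 (-0.37 ± 0.053). Its AKR value of -0.15 ± 0.056 (adjusted p = 0.0454) was not called (adjusted p from 0.0634 to 0.157) when any 1 library other than sgB2m replicate 1 was left out. Maff rose 1.42-fold in Hepa1-6 and fell 1.64-fold in LLC1, from 541.5, 552.3 and 480.3 to 294.4, 324.8 and 337.7 (-0.72 ± 0.096). Nfyc, a subunit of the CCAAT-binding trimer, fell 1.55-fold in AKR, from 1422, 1353 and 1332 to 927.3, 866.1 and 857 (-0.63 ± 0.061), and was not called in the other lines.

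**Figure D5:**
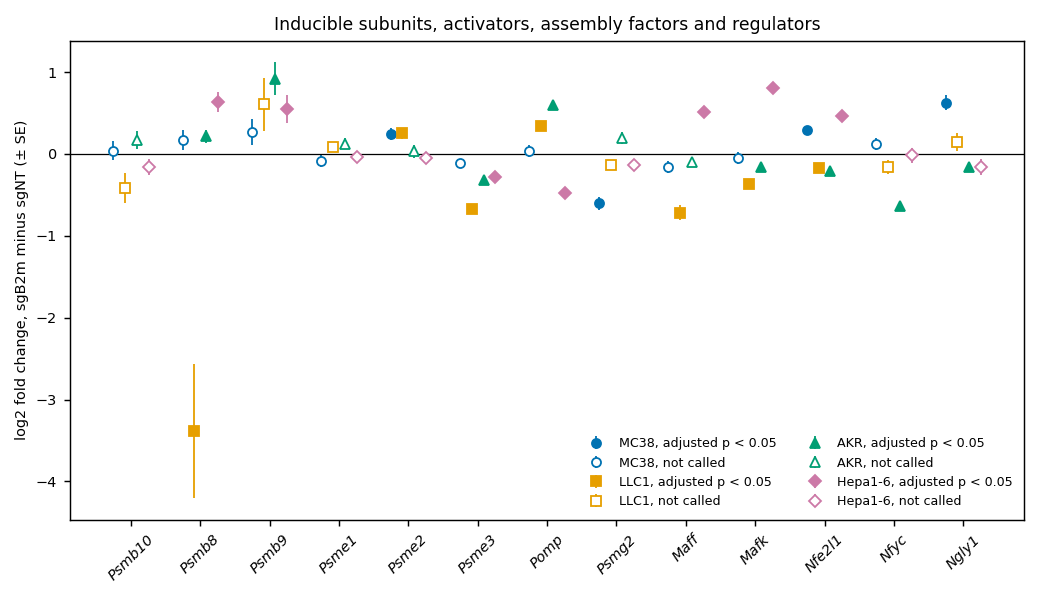
Log2 fold change (sgB2m minus sgNT, ± SE, 3 libraries per group) of inducible subunits, activators, assembly factors and regulators in MC38, LLC1, AKR and Hepa1-6; filled symbols were called at an adjusted p under 0.05. Nfe2l1, Maff and Mafk are highest in Hepa1-6 (0.47, 0.51 and 0.81), and the low point of Psmb8 in LLC1 (-3.38) rests on 9 reads against 63.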

How the data were processed

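RNA of 4 mouse tumour lines with sgB2m or sgNT was sequenced in 24 libraries. The deposited values are log2 normalised counts, 1 table per line. The tools named in the submitters' processing notes are STAR, DESeq2 and FastQC 0.11.5, and the build is mm10; the gene counter is not given in the sources used here. After 2 was raised to each value and the authors' pseudocount of 1 subtracted, 100% of values in a library were whole multiples of 1 step, within 0.05 reads, so a normalised count is a read count divided by a size factor set within the line. Levels were compared only within a line.

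Statistics used limma 3.58.1 and statmod 1.5.0 in R 4.3.3. The code was also run on simulated counts, with 1 setting of the spread for all genes and libraries. The real libraries are less even than that, so the simulation does not vouch for the calls. A gene was tested in a line where 3 or more of its 6 libraries reached 3.5 in log2. The test was limma's moderated one, two-sided, with the intensity trend on and no covariate. Benjamini-Hochberg adjustment ran over all genes tested in the line, and genes were called at an adjusted p under 0.05. Fold changes are on the log2(value + 1) scale. Differences between lines were tested by the interaction of line and guide. Values over several members carry no p-value.

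The members and lists were chosen with earlier results of these data known. The text names, per line and particle, the 2 highest and 2 lowest members called, members called the same way in at least 3 lines, the 4 with the lowest interaction p, the catalytic subunits, Psmd14 and the chaperones. From the 6 related lists it names called genes with a fold change past 0.5 in log2 either way, with Psmb8, Psmb9, Psmb10, Psme1, Psme2, Nfe2l1 and Pomp always. Psma6, Psmb4, Psmc2, Psmc6, Psmd2, Psmd4 and Psmd12 were named after their values were seen. Marker genes of the tissues of origin, epithelium, leukocytes, myeloid cells and endothelium were read as a check of the labels; of the endothelial ones, Pecam1 in AKR was the 1 called, lower (-0.62 ± 0.21). Alternatives were other filters, another pseudocount, 2 other scalings, no trend, voom on the recovered reads, a replicate block and each library left out. The tests across lines were not run with voom, and there 1 replicate number was left out of all groups in place of 1 library.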

Additional observations from a re-analysis of the deposited data

Results flagged for a closer look

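The change from sgNT to sgB2m differed between the 4 lines for 31 of the 34 proteasome genes by limma's interaction test, at a background of 69.8% of genes. The 4 genes with the lowest adjusted p were Psmd8 (4.8e-15), Psmd1 (1.64e-12), Psmd11 (5.76e-12) and Psma2 (7.72e-12). Psmd8 ranged from -0.48 in MC38 to 0.70 in Hepa1-6, with separate groups in all 4 lines. Psmd1 ranged from -0.42 in Hepa1-6 to 0.28 in MC38, where the other genes of its chromosome had a median of 0.23; the part of that chromosome in its change was not tested. Psmd11 ranged from -0.38 in LLC1 to 0.37 in AKR, where its 20 nearest tested genes had medians of -0.22 and -0.09. Psma2 ranged from -0.42 in Hepa1-6 to 0.67 in LLC1.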

How the results depend on the processing

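Of 73 called values of the named members, 55 were called under every alternative tried. For the named genes of the other lists, 21 of 26 were called under every alternative in which they were tested. Psmb8 in LLC1, 1 of these 21, was tested in 10 alternatives and every other value in 14. It was not tested with the stricter filter or when any 1 sgNT library was left out. No called value changed sign. Voom on the recovered reads kept all 73. Without 1 library, members called lower ranged from 21 to 27 in MC38, 9 to 12 in LLC1, 0 to 2 in AKR and 26 to 27 in Hepa1-6. Members called higher ranged from 4 to 8 in LLC1 and 19 to 23 in AKR, and stayed at 1 in MC38 and 2 in Hepa1-6. For the tests across lines, 1 replicate number was left out of every group at once. The interaction count then ranged from 29 to 31, and the count with the line as the replicate was 0. The AKR count of members called lower was 0 after quantile normalisation, 2 after median centring and 0 with no intensity trend, where 14 AKR members were called higher and 4 LLC1 members. Quantile normalisation gave medians of 0.056 (core) and -0.001 (regulatory) in LLC1, and 0.27 and 0.29 in AKR. Median centring gave 0.021 and -0.035 in LLC1, 0.175 for the regulatory particle in AKR, and -0.267 and -0.257 in Hepa1-6. The all-gene median stayed within 0.04 of 0 under each setting that kept all libraries. Without 1 library, core medians ranged from -0.329 to -0.234 in MC38, 0.025 to 0.041 in LLC1, 0.179 to 0.23 in AKR and -0.247 to -0.216 in Hepa1-6; regulatory medians ranged from -0.246 to -0.202, -0.039 to -0.018, 0.169 to 0.235 and -0.241 to -0.211. The core minus regulatory shift ranged from -0.116 to -0.065, 0.079 to 0.09, 0.018 to 0.039 and -0.045 to -0.033. The cause of these differences was not tested.

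Samples with the same replicate number did not deviate together, with correlations from -0.03 to 0.05 over 12 pairs; in LLC1 alone all 3 samples correlated best with their own number, a hint from the data and not from the design. With the replicate block, 1 member was higher and 24 lower in MC38, 2 and 26 in Hepa1-6, 22 and 1 in AKR and 9 and 10 in LLC1. The interaction was called for 32. The calls of Psmc1 in MC38 and of Psmb5 and Psmd5 in LLC1 were lost (3 of 73). The lowest member value in a library was 712.9 normalised counts (Psmd10 in AKR); Psmb8 in LLC1, at 9 and 63 reads, is limited by depth.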
